A study of Mus musculus with 7 samples.

Results

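The genes described here are 42 genes of the skeletal muscle fibre: the proteins of its contractile filaments, its Z-disc and M-band scaffold, its calcium handling and its energy supply. They were chosen as a list of gene symbols, drawn up with earlier results of these arrays known, and each was found through the RefSeq accession that the array design gives its probe. A gene probe was found for 33 of the 42, out of 13971 gene symbols named in this way. Of the 33, 11 encode forms typical of fast-twitch fibres, 4 encode forms typical of slow-twitch fibres, and 18 are shared by both fibre kinds or were not put with either. The 9 without a probe were Myh1, Myh2, Neb, Cacna1s, Myot, Ldb3, Ampd1, Smpx and Trdn, so that of the adult fast myosin heavy chains only Myh4 was measured. Since the list was known to stand out on the αERKO array, every value that sets that array apart is a description and no test of it.

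Gene expression was measured in thoracic mammary glands of 4-week-old female mice after organ culture. Each group had a single CodeLink Mouse Whole Genome array and no replicate. Glands with both estrogen receptors intact are on 5 of the 7 arrays, and the other 2 hold glands of the knockouts, αERKO (the Esr1 gene, encoding ERα) and βERKO (the Esr2 gene, encoding ERβ), both on a C57BL6/129SV background. The study compared the knockouts with C57 wild-type (WT) glands kept 24 days in culture with the carcinogen DMBA, to learn which genes depend on each receptor. WT glands kept 10 days and 24 days without DMBA, and Balb/c glands kept 24 days with and without Vitamin D5, make up the other 4 arrays.

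The culture protocol, which is given once for all samples, has 10 days of growth with insulin, prolactin, aldosterone and hydrocortisone, DMBA at 2 µg/ml for 24 h on Day 3, and a further 14 days with insulin alone at 5 µg/ml. Mice had been pretreated over 9 days with estrogen (1 µg) plus progesterone (1 mg), or over 5 days with EGF (25 ng) plus the same progesterone dose. The study's results section names EGF and progesterone for the 3 groups it compared, which are WT with DMBA, αERKO and βERKO. The sample titles name DMBA only for the WT array, and no dose of Vitamin D5 is given. The study's abstract and the legend of its microarray figure describe the glands of these 3 groups as treated with the carcinogen. RNA was extracted gland by gland, and equal amounts from 5 mice were pooled for each of those 3 groups. Knockout and WT glands differ in strain background as well as in genotype. The study's methods are not clear on which αERKO tissue was taken for the arrays. Its discussion describes the αERKO glands as free of preneoplastic lesions, and the WT and βERKO glands set against them as containing such lesions. By that account the αERKO array differs from both in lesion status too, and this cannot be told apart from genotype.

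Values are log2 intensities relative to the median gene probe of the same array, so that 0 is the middle of the array and 1 unit is 2-fold. A probe was taken as measured where the scanner software called its spot good. The arrays had median intensities of 39.1 to 53.0 over a local background of 80.0 to 83.0, and 68.4% to 74.2% of 34967 gene probes were good. The Esr1 probe was good only on the WT + DMBA and Balb/c + D5 arrays. On the αERKO array it read -3.76, above WT 24-day (-3.96) and WT 10-day (-9.45), so it does not set αERKO apart from all arrays with ERα intact. The Esr2 probe was brightest, at 0.87, on the array labelled βERKO, which is therefore called by its label. Of 12 luminal epithelial markers with a probe, 11 or 12 were good on each array.

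In a skeletal muscle fibre, myosin of the thick filaments pulls on actin of the thin filaments when calcium binds to troponin. The ryanodine receptor releases that calcium from the sarcoplasmic reticulum and the SERCA pump returns it, while creatine kinase, glycogen breakdown and glycolysis renew the ATP that both steps use. Fast and slow fibres build the same machine from different gene copies, so that a muscle's troponin and myosin transcripts tell which kind of fibre it holds. The mammary gland has contractile myoepithelial cells, which use smooth muscle proteins, and its thoracic pads lie over striated body-wall muscle.

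For 30 of the 42 genes the RefSeq promoter table of the GRCm38.p6 build gave at least 1 window, reaching from 250 bases before to 50 bases after a transcript start, and 35 windows in all. In these windows 4 motifs were searched: the E-box (CANNTG), bound by the MyoD family, the TATA box (TATAAA, on the gene's strand alone), the binding site of MEF2, and the CArG box, bound by serum response factor, the last 2 by their usual consensus and on both strands. An E-box lay in 80.0% of the 35 windows and in 72.3% of all 32851 windows of the table. A MEF2 site lay in 14.3% of the members' windows and in 3.19% of all windows. For the CArG box the shares were 14.3% and 1.63%, and for the TATA box 14.3% and 8.32%. Windows of 1 gene can overlap, and Ldb3, which has no probe here, gave 2 of the 5 windows with a CArG box. The first promoter below is that of the skeletal muscle actin gene, whose second highest value, after αERKO, was on the array labelled βERKO. The next are those of a fast myosin and a fast-fibre calcium buffer that were high on the αERKO array. The last is that of a slow troponin whose αERKO value was close to the other arrays. Capitals mark E-boxes, TATA boxes, MEF2 sites (runs starting TTATT) and CArG boxes (runs starting CC and ending GG), none of which overlap in these 4 windows.
Acta1, chr8:123894726-123895025, minus strand: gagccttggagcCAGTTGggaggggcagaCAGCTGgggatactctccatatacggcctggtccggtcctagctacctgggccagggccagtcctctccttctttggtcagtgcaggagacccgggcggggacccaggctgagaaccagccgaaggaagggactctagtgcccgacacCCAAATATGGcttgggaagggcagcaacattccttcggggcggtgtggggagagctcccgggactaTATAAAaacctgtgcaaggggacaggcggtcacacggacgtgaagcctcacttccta
Myh4, chr11:67237562-67237861, plus strand: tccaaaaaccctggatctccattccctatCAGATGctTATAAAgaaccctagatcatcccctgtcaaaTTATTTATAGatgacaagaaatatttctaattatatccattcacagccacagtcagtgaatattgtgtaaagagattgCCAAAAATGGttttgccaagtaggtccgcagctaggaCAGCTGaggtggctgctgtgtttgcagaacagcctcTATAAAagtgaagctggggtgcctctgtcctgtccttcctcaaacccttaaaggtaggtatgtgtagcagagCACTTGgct
Pvalb, chr15:78206351-78206650, minus strand: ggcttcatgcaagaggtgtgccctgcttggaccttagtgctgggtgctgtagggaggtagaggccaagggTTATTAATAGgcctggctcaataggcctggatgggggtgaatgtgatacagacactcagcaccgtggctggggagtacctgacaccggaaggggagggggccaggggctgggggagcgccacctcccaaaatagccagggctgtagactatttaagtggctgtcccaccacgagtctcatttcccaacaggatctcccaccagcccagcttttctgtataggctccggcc
Tnni1, chr1:135799171-135799470, plus strand: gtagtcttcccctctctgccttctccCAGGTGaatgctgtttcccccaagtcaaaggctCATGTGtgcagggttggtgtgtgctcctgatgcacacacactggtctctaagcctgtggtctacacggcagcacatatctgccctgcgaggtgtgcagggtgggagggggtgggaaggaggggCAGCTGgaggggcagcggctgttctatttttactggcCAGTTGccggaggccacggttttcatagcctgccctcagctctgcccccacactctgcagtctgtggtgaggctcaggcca
The Myh4 window held all 4 motifs, with 3 E-boxes, 2 TATA boxes, 1 MEF2 site and 1 CArG box. The Acta1 window held 2 E-boxes, 1 TATA box and 1 CArG box. In the Pvalb window, 1 of 2 listed for that gene, a MEF2 site was the single match, and in the Tnni1 window all 4 matches were E-boxes. A match describes the letters of a window and not the binding of a factor.

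On the αERKO array 32 of the 33 genes were measured, all except Actn2, where 79.5% of all named genes were good. On the other arrays fewer were measured: 20 on labelled βERKO and 20 on WT + DMBA (80.7% and 83.4% of all named genes), 16 each on WT 10-day and WT 24-day (79.6% and 80.9%), 18 on Balb/c (80.7%) and 22 on Balb/c + D5 (81.5%). The value on the αERKO array was the highest of the 7 for 31 of the 33 genes, against 20.8% of all named genes good on any array. For 26 it was more than 2-fold above every other array (5.43% of all named genes), for 22 more than 8-fold (0.906%) and for 12 more than 64-fold (0.136%). The exceptions to the order were Actn2, brightest on the WT 24-day array, and Tnnc1, which stood at -0.51 on the Balb/c array, where its spot was not called good, and at -0.71 on the αERKO array. In a whole gland, more muscle fibres and more muscle RNA per fibre cannot be told apart.

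**Figure D1:**
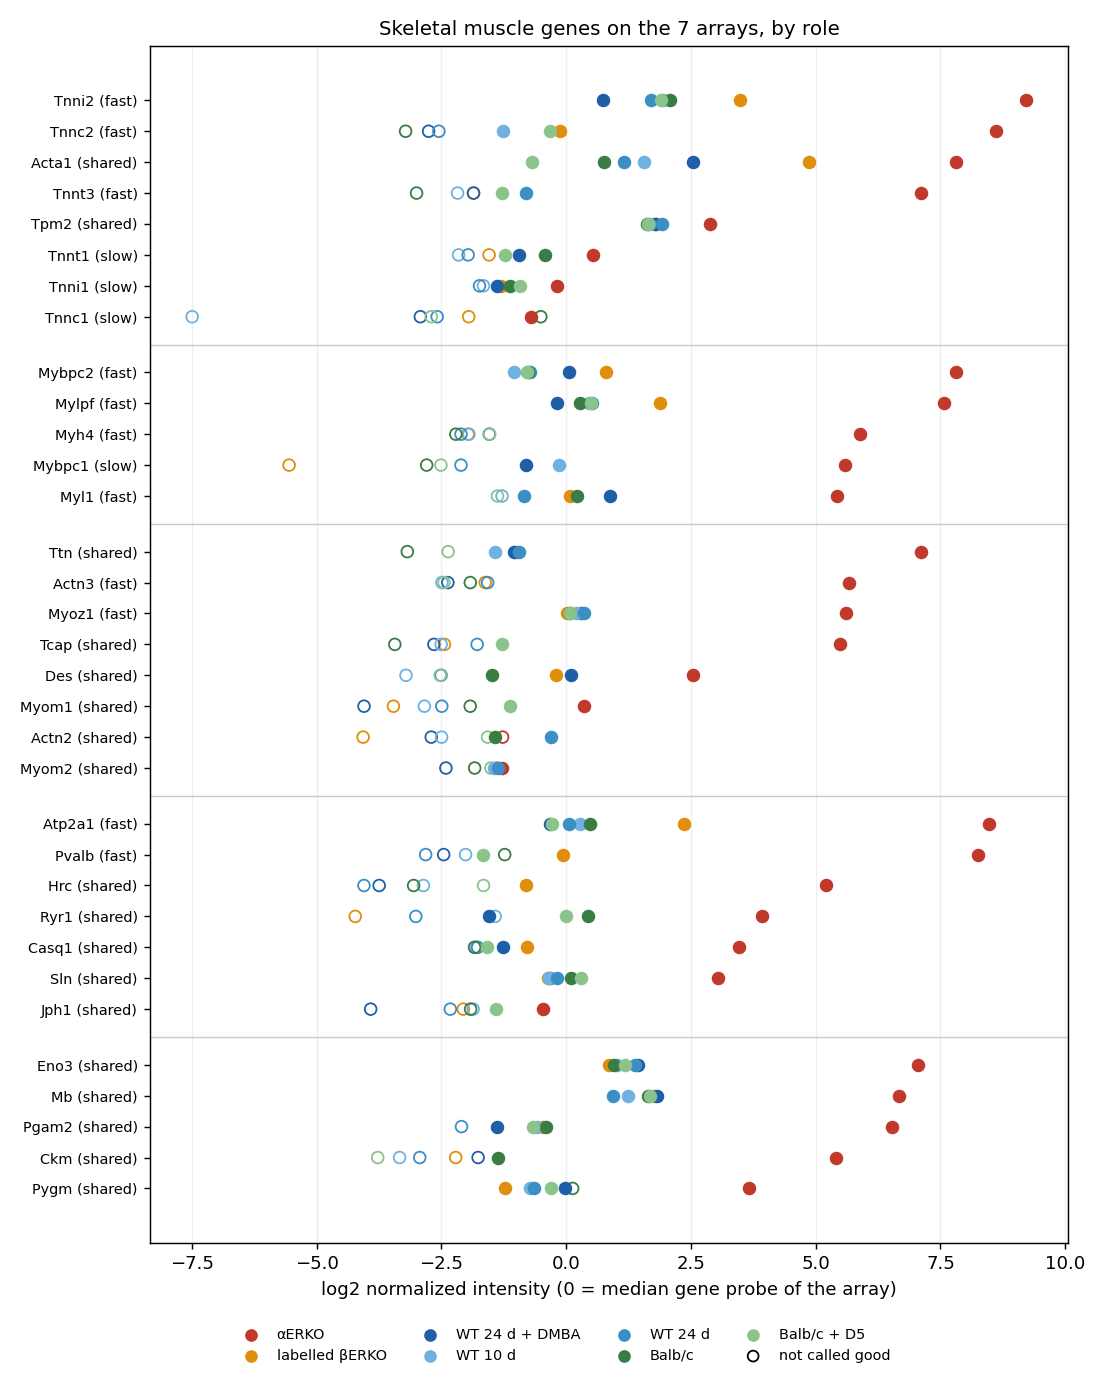
Log2 normalized intensity (x axis; 0 is the median gene probe of the array) of the 33 skeletal muscle genes with a probe, grouped by role from the top as thin filament, thick filament, Z-disc and M-band, calcium handling and energy supply; each point is 1 array and open circles are spots not called good. The αERKO points lie to the right of all others for 31 genes, and Tpm2, Jph1, Actn2, Myom2 and the slow troponins lie within 2-fold of the highest other array. Levels of different genes come from different probes and cannot be compared with each other.

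The fast-fibre troponin subunits, which switch contraction on when calcium binds, were among the genes that stood highest on the αERKO array over the others. For Tnnc2, the calcium-binding subunit, the log2 intensity was 8.61 on αERKO, -0.12 on labelled βERKO, -2.76 on WT + DMBA, -1.26 on WT 10-day, -2.55 on WT 24-day, -3.22 on Balb/c and -0.32 on Balb/c + D5. The spot was called good on 4 of these, and the αERKO value was 427-fold above the next. Tnni2, the inhibitory subunit, was measured on all 7 arrays, at 9.22 on αERKO, 3.47 on labelled βERKO, 0.74 on WT + DMBA, 1.94 on WT 10-day, 1.69 on WT 24-day, 2.09 on Balb/c and 1.90 on Balb/c + D5. Its second highest value was that of the array labelled βERKO, 1.39 log2 units above the Balb/c array. Tnnt3, the tropomyosin-binding subunit, gave 7.10 on αERKO, -1.86 on labelled βERKO, -1.86 on WT + DMBA, -2.18 on WT 10-day, -0.80 on WT 24-day, -2.999 on Balb/c and -1.28 on Balb/c + D5, with good spots on αERKO, WT 24-day and Balb/c + D5.

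The slow-fibre troponins showed a different picture. Tnnc1, which slow fibres share with heart, was called good on the αERKO array alone, at -0.71, and its values elsewhere ran from -7.50 to -0.51. For Tnni1 the values were -0.18 on αERKO, -1.31 on labelled βERKO, -1.39 on WT + DMBA, -1.66 on WT 10-day, -1.74 on WT 24-day, -1.13 on Balb/c and -0.92 on Balb/c + D5. Tnnt1 stood at 0.54 on αERKO, -1.55 on labelled βERKO, -0.94 on WT + DMBA, -2.16 on WT 10-day, -1.97 on WT 24-day, -0.43 on Balb/c and -1.23 on Balb/c + D5. Tnni1 was not called good on WT 10-day and WT 24-day, and Tnnt1 was not on those arrays and labelled βERKO. All 3 slow troponins were thus less than 2-fold above the next highest array or below it. The fast forms of the same subunits were 53.8-fold (Tnni2), 240-fold (Tnnt3) and 427-fold (Tnnc2) above the next highest array.

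**Figure D2:**
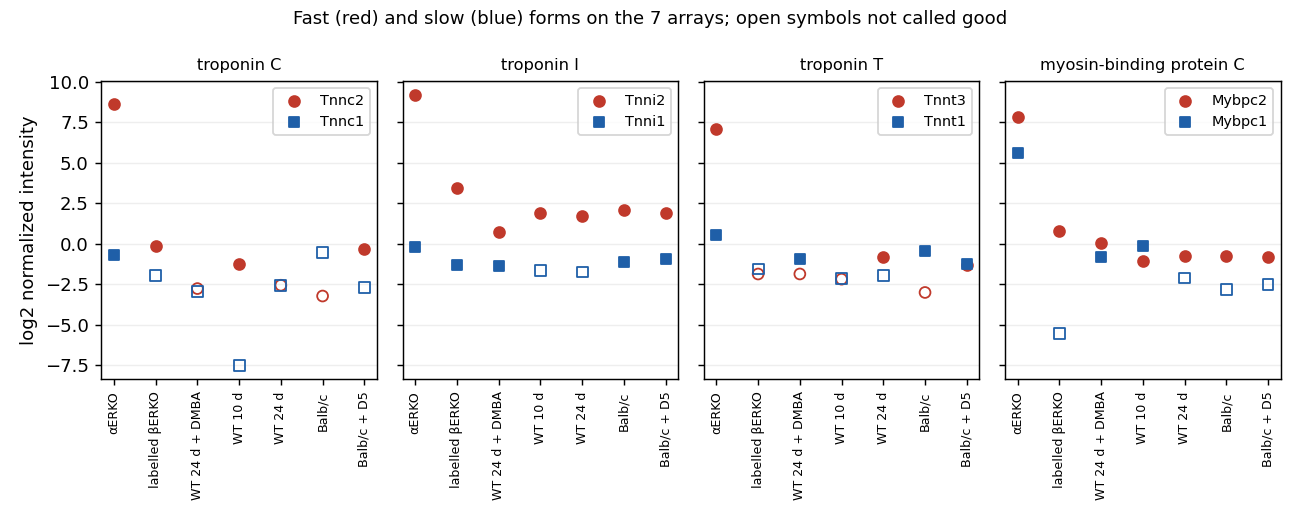
Log2 normalized intensity (y axis) on each of the 7 arrays (x axis) of the fast form (circles) and the slow form (squares) of troponin C, I and T and of myosin-binding protein C; open symbols are spots not called good. The 4 fast forms drop from αERKO to every other array, by at least 5.75 log2 units, whereas of the slow forms only Mybpc1 drops by more than 1 unit to every other array. Each form has its own probe, so the height of a circle over a square is not a ratio of transcripts.

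The other thin-filament genes are actin and tropomyosin. Acta1, the skeletal muscle actin, was measured on all 7 arrays and, of the 10 genes of which that is true, spread most over the 6 others. It stood at 7.81 on αERKO, 4.86 on labelled βERKO, 2.54 on WT + DMBA, 1.57 on WT 10-day, 1.16 on WT 24-day, 0.76 on Balb/c and -0.68 on Balb/c + D5. Tpm2, a tropomyosin that smooth muscle and other cells also make, gave 2.89 on αERKO and from 1.61 to 1.91 on the other 6, a span of 0.30 log2 units.

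Among the thick-filament genes, those of the fast myosin complex were high on the αERKO array. Mylpf, the fast regulatory light chain, was at 7.58 on αERKO, 1.88 on labelled βERKO, -0.18 on WT + DMBA, 0.46 on WT 10-day, 0.51 on WT 24-day, 0.27 on Balb/c and 0.50 on Balb/c + D5. Myl1, a fast light chain of the alkali kind, had 5.42 on αERKO, 0.07 on labelled βERKO, 0.87 on WT + DMBA, -1.29 on WT 10-day, -0.85 on WT 24-day, 0.21 on Balb/c and -1.38 on Balb/c + D5. The Myl1 spot was not called good on WT 10-day and Balb/c + D5. Myh4, the heavy chain of the fastest fibres, was at 5.88 on αERKO and was not called good on the other 6, where its values lay between -2.21 and -1.53. The heavy chain was thus measured on the αERKO array alone, and its light chain Mylpf on every array.

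Myosin-binding protein C, which links neighbouring myosins, has a fast form, Mybpc2, and a slow form, Mybpc1. Mybpc2 was measured on all 7 arrays, at 7.82 on αERKO, 0.81 on labelled βERKO, 0.05 on WT + DMBA, -1.05 on WT 10-day, -0.73 on WT 24-day, -0.76 on Balb/c and -0.78 on Balb/c + D5. Mybpc1 had 5.59 on αERKO, -5.55 on labelled βERKO, -0.81 on WT + DMBA, -0.13 on WT 10-day, -2.11 on WT 24-day, -2.80 on Balb/c and -2.51 on Balb/c + D5, with good spots on the αERKO, WT + DMBA and WT 10-day arrays. Of the genes put in the slow class, Mybpc1 was the single one more than 8-fold above every other array. Its other 2 probes, to the same accession, read 4.95 and 1.01 on the αERKO array, so the size of the difference depends on the probe.

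The Z-disc and M-band genes were split. Ttn, titin, which spans from Z-disc to M-band, gave 7.11 on αERKO, -1.01 on labelled βERKO, -1.05 on WT + DMBA, -1.44 on WT 10-day, -0.95 on WT 24-day, -3.18 on Balb/c and -2.37 on Balb/c + D5. The Ttn spot was not called good on either Balb/c array. Myoz1, a Z-disc protein of fast fibres that binds calcineurin, was at 5.62 on αERKO and between 0.01 and 0.36 on the other 6 arrays, all good. Actn3, the α-actinin of fast fibres, was at 5.67 on αERKO and good nowhere else, and Tcap, the titin cap, was at 5.48 there and good besides only on Balb/c + D5, at -1.30. These 4 genes were more than 8-fold above every other array.

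Desmin, the intermediate filament of all muscle cells, gave Des values of 2.54 on αERKO, -0.20 on labelled βERKO, 0.10 on WT + DMBA, -3.21 on WT 10-day, -2.51 on WT 24-day, -1.48 on Balb/c and -2.53 on Balb/c + D5. The array labelled βERKO and WT + DMBA were thus close together. The spots on the WT arrays without DMBA and on Balb/c + D5 were not called good. The M-band genes were dim: Myom1 was at 0.36 on αERKO and from -4.05 to -1.13 elsewhere, and Myom2 at -1.29 on αERKO and from -2.41 to -1.37 elsewhere. Actn2, the α-actinin of slow fibres and heart as well as of fast ones, was good only on WT 24-day, at -0.31, and Balb/c, at -1.44, and read -1.28 on the αERKO array.

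Calcium handling was covered by 7 genes. Atp2a1, the SERCA pump of fast fibres, was measured on all 7 arrays, at 8.48 on αERKO, 2.36 on labelled βERKO, -0.33 on WT + DMBA, 0.28 on WT 10-day, 0.06 on WT 24-day, 0.47 on Balb/c and -0.28 on Balb/c + D5. Pvalb, parvalbumin, a soluble calcium buffer of fast fibres, stood at 8.25 on αERKO, -0.06 on labelled βERKO, -2.46 on WT + DMBA, -2.02 on WT 10-day, -2.82 on WT 24-day, -1.23 on Balb/c and -1.67 on Balb/c + D5. Pvalb was good on αERKO, labelled βERKO and Balb/c + D5. For both fast-fibre genes the array labelled βERKO came second, for Atp2a1 1.89 log2 units above the next array. The next spot for Pvalb, on Balb/c, was not called good.

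Casq1, calsequestrin, which stores calcium inside the reticulum, had 3.47 on αERKO, -0.79 on labelled βERKO, -1.26 on WT + DMBA, -1.80 on WT 10-day, -1.77 on WT 24-day, -1.84 on Balb/c and -1.58 on Balb/c + D5. The Casq1 spot was not called good on WT 10-day, WT 24-day and Balb/c. Sln, sarcolipin, a small inhibitor of SERCA, was at 3.05 on αERKO and from -0.36 to 0.30 on the other 6, good on all. Hrc, a calcium-binding protein of the reticulum, was at 5.21 on αERKO and good besides only on labelled βERKO, at -0.81, and Jph1, which holds the reticulum to the cell membrane, was at -0.47 on αERKO and good besides only on Balb/c + D5, at -1.42. Casq1 and Hrc were more than 8-fold above every other array, Sln was 6.73-fold and Jph1 1.93-fold above.

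Ryr1, the calcium release channel, has 3 probes that differed in level and in size of difference. The brightest read 3.93 on αERKO, -4.23 on labelled βERKO, -1.55 on WT + DMBA, -1.42 on WT 10-day, -3.01 on WT 24-day, 0.43 on Balb/c and -0.01 on Balb/c + D5. That probe was not called good on labelled βERKO, WT 10-day and WT 24-day. The second was also highest on αERKO, at -0.21, where it was good, as it was on Balb/c + D5, at -0.97, and on WT + DMBA, at -1.32. The third was good on no array. Both probes with a good spot thus read highest on αERKO, but the brightest stood 3.49 log2 units above the next array and the second less than 1.

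The 5 energy genes were all more than 8-fold above every other array. Eno3, the muscle enolase of glycolysis, was measured throughout, at 7.04 on αERKO and from 0.86 to 1.43 on the other 6. Mb, myoglobin, which stores oxygen, was at 6.68 on αERKO and from 0.94 to 1.82 on the others, and its second probe at 5.21 and from 0.07 to 1.18. Pgam2, the muscle phosphoglycerate mutase, gave 6.53 on αERKO, -0.46 on labelled βERKO, -1.39 on WT + DMBA, -0.59 on WT 10-day, -2.10 on WT 24-day, -0.40 on Balb/c and -0.68 on Balb/c + D5. Pygm, the muscle glycogen phosphorylase, gave 3.67 on αERKO, -1.22 on labelled βERKO, -0.03 on WT + DMBA, -0.74 on WT 10-day, -0.65 on WT 24-day, 0.13 on Balb/c, where the spot was not called good, and -0.30 on Balb/c + D5. Pgam2 was not called good on WT 24-day. Ckm, the muscle creatine kinase, was at 5.41 on αERKO and good besides only on Balb/c, at -1.36. The genes of this set that were measured everywhere, Eno3 and Mb, varied by less than 1 log2 unit over the other 6 arrays.

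In the study's own comparison, αERKO against WT + DMBA, 32 genes were good on at least 1 of both arrays. All 32 were more than 2-fold higher on αERKO, where 10.2% of all named genes were, and 0 were more than 2-fold lower (15.2% of all named genes). More than 8-fold higher were 26 (2.11% of all named genes) and more than 64-fold higher 15 (0.386%). The median log2 ratio of the 33 genes was 5.48 (44.5-fold), with single genes from 1.11 to 11.37, beside a median of -0.14 over all named genes. Because the list was known to be high on this array, these shares only describe it. Over 575 pairs of probes to one accession, the log2 ratios of both probes differed with an SD of 0.85, which is the only spread available here and covers the probes, not the mice.

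The 11 fast genes had a median log2 ratio of 8.04, from 4.55 (Myl1) to 11.37 (Tnnc2), and 9 of them exceeded 64-fold. The 4 genes put in the slow class had a median of 1.85, from 1.21 (Tnni1) to 6.39 (Mybpc1). The slow troponins among them ran only from 1.21 to 2.21 (Tnnc1). The 18 shared genes lay between, with a median of 4.79 and from 1.11 (Tpm2) to 8.96 (Hrc). Where both arrays were good, the ratios included 451-fold for Atp2a1, 358-fold for Tnni2, 285-fold for Ttn, 243-fold for Pgam2, 219-fold for Mybpc2, 217-fold for Mylpf, 48.9-fold for Eno3 and 38.6-fold for Acta1. All 20 genes good on both arrays were more than 2-fold higher (7.86% of all named genes good on both), with a median log2 ratio of 5.30.

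For genes not called good on WT + DMBA only a working lower bound is given. It is the αERKO value over the higher of the WT array's lowest good signal and the probe's own value there. The other comparisons used the same rule for the array without a good spot. Such a bound is not the probe's own detection limit, since spots above an array's lowest good signal can still lack a good call. Tnnc1 on Balb/c was such a spot, at -0.51 beside a lowest good signal of -1.79. By this bound Tnnc2 was at least 1433-fold higher, Pvalb at least 1118-fold, Tnnt3 at least 498-fold, Actn3 at least 186-fold, Myh4 at least 171-fold, Tcap at least 163-fold, Ckm at least 144-fold and Hrc at least 135-fold. The dimmest genes had small bounds, of 4.70-fold for Myom1, 2.65-fold for Jph1, 2.24-fold for Tnnc1 and 1.498-fold for Myom2, so that Myom2 was not held above 2-fold by its bound.

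Against the array labelled βERKO, 31 of 32 genes were more than 2-fold higher on αERKO (11.8% of all named genes) and 0 were lower (20.2% of all named genes), and the median log2 ratio of the 33 genes was 5.70. The exception was Myom2, at a log2 ratio of 0.10. The fast genes had a median of 7.01 and the slow genes of 1.66. Acta1, 7.73-fold higher on αERKO than on this array, had the smallest ratio of the genes above 6 on the log2 scale on αERKO, and this comparison shares its αERKO array with the one before.

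**Figure D3:**
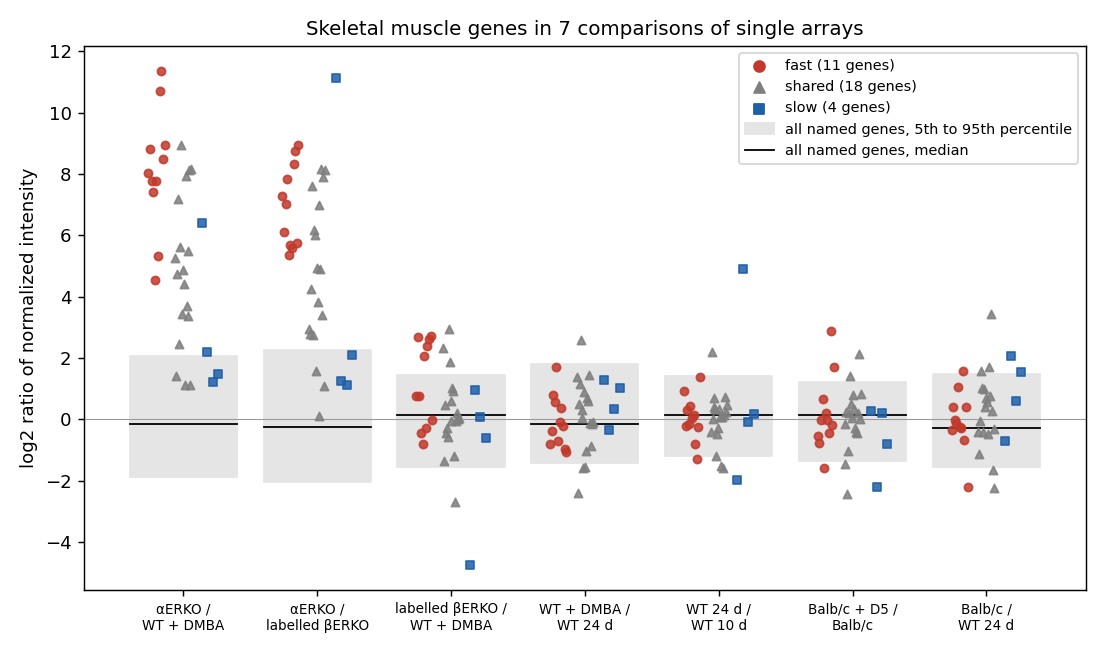
Log2 ratio of normalized intensity (y axis) of each of the 33 skeletal muscle genes in 7 comparisons of 1 array with 1 array (x axis), with fast genes as circles, shared genes as triangles and slow genes as squares. The grey boxes span the 5th to the 95th percentile of all named genes and the black lines their median. All 11 fast genes lie above the boxes of both αERKO comparisons, from 4.55 upwards against WT + DMBA, while in the other 5 comparisons the genes lie on both sides of 0.

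Between the array labelled βERKO and WT + DMBA, the genes moved in both directions. Of 23 good on at least 1 of these arrays, 7 were more than 2-fold higher on the array labelled βERKO (6.62% of all named genes) and 3 more than 2-fold lower (7.29% of all named genes), and the median log2 ratio of the 33 genes with a probe was 0.08, beside 0.14 over all named genes. The 7 were Tnnc2, Tnni2, Atp2a1, Pvalb, Acta1, Mylpf and Hrc, of which 5 are fast-fibre genes. Tnni2 was 6.66-fold, Atp2a1 6.47-fold, Acta1 4.99-fold and Mylpf 4.16-fold higher, each good on both arrays, and probe pairs to one accession differed here with an SD of 0.52 on the log2 scale. For the other 3, not called good on WT + DMBA, the bounds were at least 3.51-fold for Pvalb, at least 3.36-fold for Tnnc2 and at least 2.08-fold for Hrc.

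The 3 lower genes were Ryr1, Pygm and Mybpc1. Pygm, good on both arrays, was lower by 2.28-fold, while Mybpc1 was at least 1.76-fold and Ryr1 at least 1.05-fold lower by their bounds. The array labelled βERKO was the highest of the 6 arrays other than αERKO for 9 of the 33 genes. This was not far from the share of all named genes, of which 21.4% had their highest value of the 6 there. The 9 were Tnnc2, Tnni2, Atp2a1, Pvalb, Mybpc2, Acta1, Mylpf, Casq1 and Hrc, that is 6 of 11 fast, 3 of 18 shared and 0 of 4 slow genes. For Acta1 the array labelled βERKO stood 2.32 log2 units above the next, WT + DMBA. Of the other genes measured on all arrays, Tpm2 had a log2 ratio of 0.01 to WT + DMBA, and Myoz1, Eno3, Mb and Sln were below 0.

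**Figure D4:**
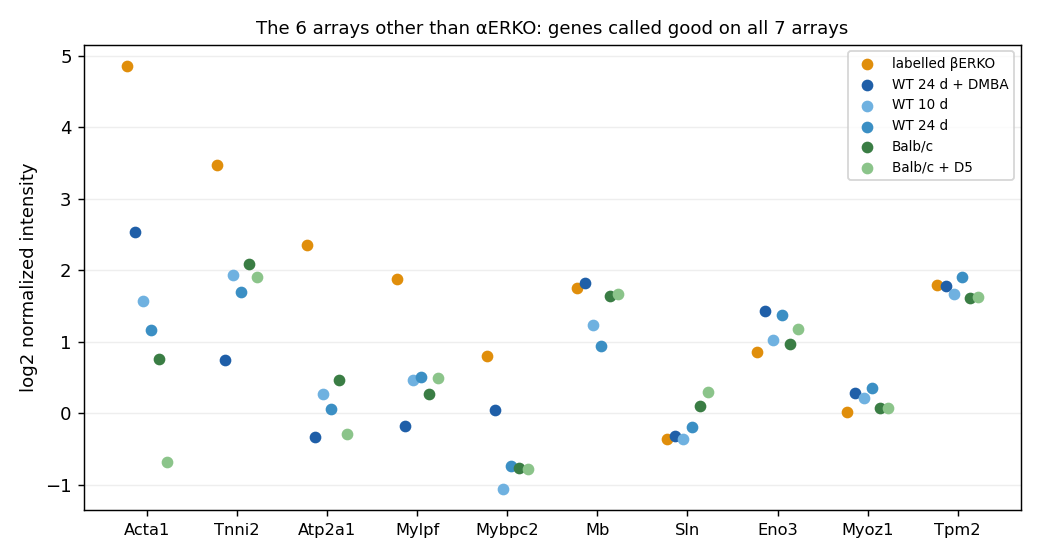
Log2 normalized intensity (y axis) on the 6 arrays other than αERKO of the 10 skeletal muscle genes whose spots were good on all 7 arrays (x axis, ordered by their spread). Acta1, Tnni2, Atp2a1, Mylpf and Mybpc2 are highest on the array labelled βERKO, while Sln, Eno3, Myoz1 and Tpm2 lie within 0.66 log2 units over the 6 arrays.

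The remaining arrays allow comparisons of DMBA, culture time, Vitamin D5 and strain, each again with 1 array a side, and with an SD of 0.32 to 0.46 between the log2 ratios of paired probes. With DMBA against without, in WT glands at 24 days, 6 of 23 genes were more than 2-fold higher (11.6% of all named genes) and 3 lower (7.79% of all named genes). Good on both arrays were only Acta1, 2.60-fold higher with DMBA, and Myl1, 3.29-fold higher. The other 4 higher genes, Des (at least 3.28-fold), Mybpc1 (at least 1.76-fold), Tnnt1 (at least 1.60-fold) and Ryr1 (at least 1.05-fold), were good with DMBA alone, and the 3 lower genes, Actn2 (at least 2.96-fold), Tnnt3 (at least 2.08-fold) and Myom2 (at least 1.41-fold), were good without DMBA alone. The median log2 ratio of the 33 genes was 0.06.

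From 10 to 24 days of culture without DMBA, 2 of 19 genes were more than 2-fold higher (5.47% of all named genes) and 3 lower (4.34% of all named genes). Actn2 was at least 2.69-fold and Tnnt3 at least 1.91-fold higher at 24 days, and Mybpc1 at least 2.80-fold, Pgam2 at least 2.04-fold and Tnnc2 at least 1.28-fold lower. Each of the 5 was good on 1 of the arrays only, and all 13 genes good on both arrays were within 2-fold, as were 95.3% of all named genes good on both.

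With Vitamin D5 in Balb/c glands, 3 of 26 genes were more than 2-fold higher (4.41% of all named genes) and 4 lower (4.39% of all named genes). Acta1, good on both arrays, was 2.71-fold lower with Vitamin D5, and Myl1 at least 3.01-fold, Ckm at least 1.44-fold and Des at least 1.32-fold lower. Tnnc2 was at least 2.77-fold, Tnnt3 at least 1.42-fold and Tcap at least 1.41-fold higher. Tnnc2 and Tnnt3 on one side and Acta1 on the other, all of the thin filament, thus lay on opposite sides of 0.

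Balb/c against WT glands, both at 24 days without DMBA in the title, gave 6 of 22 genes more than 2-fold higher (6.22% of all named genes) and 3 lower (12.2% of all named genes). Myl1 was 2.09-fold higher and Actn2 2.19-fold lower in Balb/c, each good on both arrays. Ryr1 was at least 4.15-fold, Pgam2 at least 2.33-fold, Tnnt1 at least 2.29-fold, Ckm at least 1.20-fold and Des at least 1.10-fold higher, and Tnnt3 at least 1.99-fold and Ttn at least 1.79-fold lower. In none of these 4 comparisons did the fast-fibre genes measured on both arrays all lie on one side of 0.

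Other muscle genes, from lists that do not overlap the 42 except for Des, were set beside them for αERKO over WT + DMBA, where 10.2% of all named genes were more than 2-fold higher and 15.2% lower. Of 24 further sarcomere and membrane genes with a probe, 22 were good on at least 1 of both arrays, and 17 of these were more than 2-fold higher and 1 lower. Many of the 17 were good on αERKO and not on WT + DMBA. The median log2 ratio of the 24 was 2.78. Tmod4, which caps thin filaments, was at 4.69, Csrp3, a Z-disc LIM protein, at 3.36, and Srl, sarcalumenin of the reticulum, at 2.43, while Fbxo32, a ubiquitin ligase of wasting muscle, was lower at -1.91. Of 13 energy and mitochondrial isoforms of muscle, 11 were higher and 0 lower, with Ckmt2, the mitochondrial creatine kinase, at 5.79, Phkg1, a phosphorylase kinase subunit, at 5.76 and Cox6a2, a cytochrome oxidase subunit of muscle, at 4.94. Cox8b, Cox7a1 and Car3 of that list are also made by fat cells. The list also held Myoz3, a relative of Myoz1 and not an energy gene, which was among the 11 higher, at 1.52.

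Among 7 further slow-fibre genes, 6 were good on at least 1 of both arrays, of which 3 were more than 2-fold higher and 1 lower. The 3 higher genes, Myl2, Myoz2 and Casq2, were not called good on WT + DMBA and entered the count through αERKO alone. Of the genes good on both arrays, Atp2a2 and Myl3 were at log2 ratios of 0.26 and Tpm3 at -1.28. Myh7, the slow myosin heavy chain, was good on WT 24-day alone and read -2.49 on αERKO. Myl2, a slow and cardiac light chain, was good on the αERKO array alone, at 0.27. Of 12 myogenic regulators and satellite-cell genes good on at least 1 array, 6 were higher and 1 lower. The higher ones included Des itself, Myod1, at a log2 ratio of 1.93, and Myf6, at 1.19. Myog, also among the 6, was not called good on WT + DMBA and was counted through αERKO alone. Pax7, the marker of satellite cells, was good on the array labelled βERKO alone, at -0.56. Of the embryonic and regenerating muscle genes 3 of 5 were higher, and of the neuromuscular junction genes 0 of 3 were higher or lower. Chrng, 1 of those 3 embryonic genes, was not called good on WT + DMBA and read higher on Balb/c (0.02) than on αERKO (-0.79). More than 2-fold above every other array were 0 of the 5.

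Markers of other cells that make contractile proteins were read as well, in the same comparison and beside the same 10.2% and 15.2% of all named genes. Of 8 cardiac markers with a probe 3 were good on at least 1 of both arrays and these were higher. They were Tnni3, at a log2 ratio of 1.41, Pln, at 1.94, and Myl7, at 2.43, the last not called good on WT + DMBA. Myh6 and Nkx2-5 were good on no array and Nppb on WT 24-day alone, so these probes show no difference for αERKO. Of 13 smooth muscle and myoepithelial genes 2 were higher and 5 lower. Tpm1, a tropomyosin that skeletal muscle also makes, was at a log2 ratio of 5.53 and Acta2, smooth muscle actin, at -1.58. The other lower genes were the keratins Krt5, Krt14 and Krt17, and Trp63. Myh11, Tagln, Cnn1, Smtn, Lmod1 and Actg2 were within 2-fold, at log2 ratios from -0.76 to 0.02. Of 13 widely expressed counterparts of the muscle isoforms good on at least 1 of both arrays, 2 were higher and 1 lower, and the median log2 ratio of the 14 with a probe was -0.11. Their summed intensity, in units of the array median, was 1902 on αERKO and from 1901 to 2288 on the others. The 2 higher genes of this list were Pygb, at a log2 ratio of 1.42, and Jph2. Jph2 is a junctophilin of muscle and no widely expressed form. It was not called good on WT + DMBA and was counted through αERKO alone.

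Other cell types also differed between the αERKO array and the rest. Against WT + DMBA (10.2% of all named genes higher and 15.2% lower), luminal epithelial markers had 1 of 12 higher and 6 lower, and a summed intensity of 651 on αERKO beside 982 to 1607 on the other 6 arrays. White adipocyte markers had 3 of 12 higher and 0 lower, and a sum of 4287 beside 338 to 2590. Car3, 1 of these 3 and part of the sum, is also counted on the muscle energy list above. Fibroblast markers had 2 of 8 higher and 0 lower, and a sum of 431 beside 16.4 to 241. On the array labelled βERKO, where several fast-fibre genes came second, 7 of 12 white adipocyte and 6 of 8 fibroblast markers were more than 2-fold lower than on WT + DMBA (7.29% of all named genes), and 0 of either were higher (6.62%). What these cell types contribute to the values of the muscle genes was not tested.

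Outside the 33 members, the 10 genes whose profile over the 7 arrays was most like the median profile of the 33 were sought among 2127 genes that were good on at least 1 array and spanned at least 3 log2 units. They were 1700030K09Rik, with a Pearson r of 0.994, Cd209a, Phkg1, Inmt, Tph1, Retnla, Txlnb, Cd2, Cd3d and Csrp3, with an r of 0.985 for the last, and all 10 were high on the αERKO array. Phkg1 and Csrp3 are on the muscle lists above, and Cd2 and Cd3d are T-lymphocyte genes. With 7 arrays of which 1 stands apart, such a correlation describes little more than that array. The members' own correlation with the median of the others ran from 0.18 to 0.99 over the 7 arrays, with a median of 0.96. Over the 6 other arrays alone, the 10 genes good on all of them had a median of 0.56 and ran from -0.89 to 0.81.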

How the data were processed

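RNA of cultured mouse mammary glands was labelled and hybridized by the authors to 7 CodeLink arrays, 1 per group. The intensity of each spot in the deposited scanner tables is its mean signal minus the median of its local background, as was checked against both columns, with a quality call by the software. The deposited normalized intensity is that value over 1 constant per array and was used as an alternative. The series table names no probes and was not used. Aligner and genome build do not apply.

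Intensities were divided by the array's median over 34967 gene probes, following the authors' methods, and log2 was taken, with values at or below 0 (246 to 344 per array) set to the lowest value above 0. Of 15553 probes with a RefSeq accession 14763 matched a gene, giving 13971 symbols, and the brightest probe by mean stood for a gene. Genes were counted where good on at least 1 of both arrays and past 2-fold. With 1 array per group there is no test and no p-value, and the number of arrays limits the precision. The members, the lists of other genes and the alternatives were chosen with earlier results of these data known. Any of the 42 genes could be named, with values on every array for those good on 3 or more arrays and for fast and slow partners, and for other lists up to 4 genes good on both arrays and past 2-fold. Myh7, Myl2, Pax7, Myh6, Nkx2-5 and Nppb were named besides, as defining markers, after their values were seen. Further genes of the muscle, myoepithelial, fat-cell and counterpart lists were also named after their values were seen, to show which genes the counts rest on. The genes 1700030K09Rik to Csrp3 are the 10 most correlated with the members' median. On αERKO against WT + DMBA, 3 of 9 brown adipocyte markers were higher and 2 lower, as were 2 and 2 of 5 endothelial, 1 and 1 of 3 leukocyte, and 2 and 0 of 6 peripheral nerve markers (10.2% and 15.2% of all named genes). Cox8b and Cox7a1, among the higher brown adipocyte markers, are also on the muscle energy list. Alternatives were quantile, 75th-percentile and cyclic loess scaling, the median over probes good on all arrays, normexp with offset 50, the deposited normalized intensity, a floor at the lowest good value, other probe rules and other thresholds. Counting was tested on simulated data. Python 3.11.15, pandas 2.3.3, numpy 2.4.6, R 4.3.3 and limma 3.58.1 were used.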

Additional observations from a re-analysis of the deposited data

How the results depend on the processing

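Of 259 recomputed values for 24 results under 13 settings, 216 stayed within 1.5 times the reported count or within the probe spread, 43 moved and 0 changed the direction of a called value. The number of genes highest on αERKO stayed at 30 or 31, and no setting put a member more than 2-fold lower on αERKO. Restricted to spots good on both arrays, 20 genes were higher on αERKO than on WT + DMBA and 20 than on the array labelled βERKO; the counts of higher and lower genes became 4 and 1 for labelled βERKO over WT + DMBA, 2 and 0 for DMBA, 0 and 0 for culture time, 0 and 1 for Vitamin D5, and 1 and 1 for Balb/c over WT. Under normexp, which compresses dim spots, the medians fell to 4.41 for αERKO over labelled βERKO, 6.51 for fast and 0.59 for slow genes over WT + DMBA, and the counts to 4 and 0 for labelled βERKO, 1 and 0 for DMBA, and 0 and 0 for culture time, Vitamin D5 and Balb/c over WT. With the floor, 1 gene was lower on labelled βERKO, 3 higher with DMBA, 1 higher at 24 days, 1 higher and 2 lower with Vitamin D5, and 1 lower in Balb/c, whose median turned from 0.29 to -0.17. With the dimmest probe 1 gene was lower on labelled βERKO, and with quantile normalization 1 was lower with DMBA. At 3-fold the counts were 2 and 1 for DMBA and 1 and 1 for culture time, with 2 lower for Vitamin D5 and 2 higher for Balb/c; at 1.5-fold they were 10 and 5 for DMBA, with 5 lower on labelled βERKO. Beyond the alternatives' own construction the cause was not tested. The median of all named genes for αERKO over WT + DMBA lay between -0.14 and 0.05 across scalings. No paired analysis was possible because each group has 1 array. For the dim genes, spots near background limit what can be read.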
